A study of Mus musculus with 4 samples.

Results

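Chemokine ligands are small secreted proteins that steer leukocytes. They were taken as every gene whose symbol is Ccl, Cxcl, Xcl or Cx3cl followed by a number and at most 1 lower-case letter. The rule found 44 feature rows with 38 symbols among 32290 features. In the cells kept here 34 symbols had a unique molecular identifier (UMI, 1 captured transcript), 29 had at least 20 UMIs, 5 had fewer, and Ccl21c, Ccl26, Ccl27b and Cxcl15 had 0. Together the members held 103036 UMIs, 0.239% of all UMIs of the kept cells.

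The data were droplet single-cell libraries of the 3' ends of transcripts from adipose tissue (AT) of male mice aged 7 months after 5 months of high-fat diet. WT mice were Tie2e-cre; TERT+/+; mTmG, and KO mice were Tie2e-cre; TERTfl/fl; mTmG, so that both carried the Cre driver and the mTmG membrane colour reporter. Subcutaneous (SC) and visceral intraperitoneal (IP) AT gave 1 library for each genotype, 4 in all. The number of mice behind a library was not stated, and the labels name both cells and nuclei. The Tie2 regulatory sequence acts in endothelium and, in many Tie2 lines, also in part of the blood lineage, so deletion need not stop at the vessel wall. The comparisons address which cells of each depot make each ligand, and whether its level in them differs between KO and WT or between depots.

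Chemokines bind G protein-coupled receptors on leukocytes and are held on matrix and vessel walls, where they form the gradients along which cells crawl. Homeostatic ligands such as Cxcl12, Ccl19 and Ccl21 place cells in resting tissue. Inflammatory ones are switched on by NF-kB, STAT or interferon signals. In obese AT, Ccl2 is known for drawing monocytes that become macrophages, and Ccl11 for attracting eosinophils.

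Tert, the targeted gene, had 3, 2, 8 and 9 UMIs over all barcodes of WT SC, KO SC, WT IP and KO IP, too few to check the genotype labels. KO SC and WT IP shared 93 cell barcodes. Their copies in KO SC held a median of 601 UMIs, and those in WT IP a median of 35392 UMIs, 75 of the KO SC copies typing as stromal cells. They were left out of KO SC, and some of the ratios with them kept are given beside the result. With 1 library per group there was no replicate, and no test was possible. Every interval covers counting error only and not the spread between cells or between mice. The 4026 kept cells (969, 1867, 673 and 517 in the same order) were typed by UMIs of marker genes, none of which is a chemokine. Of these, 180 stayed untyped and 30 were mixed. Barcodes under 200 genes held 1, 1, 17 and 11 chemokine UMIs among 45007, 18979, 54225 and 32185 UMIs other than haemoglobin, or 22.2, 52.7, 314 and 342 when scaled as CPM.

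The sequences just upstream of 4 inducible ligands are shown. These genes lie in 2 tight clusters on chromosome 5, yet the class with the most UMIs differed within each cluster. The 4 genes were chosen after their values were seen. Cxcl1 and Cxcl2 code for neutrophil attractants that bind Cxcr2, and Cxcl9 and Cxcl10 for T cell attractants that bind Cxcr3. Each line is the 250 bases before the RefSeq start on build GRCm38.p6, written 5' to 3' on the gene's strand, with matches to the NF-kB type motif GGG, any 2 bases, TT, any base and CC, on either strand, in capitals.
Cxcl1, chr5:90890995-90891244, plus strand: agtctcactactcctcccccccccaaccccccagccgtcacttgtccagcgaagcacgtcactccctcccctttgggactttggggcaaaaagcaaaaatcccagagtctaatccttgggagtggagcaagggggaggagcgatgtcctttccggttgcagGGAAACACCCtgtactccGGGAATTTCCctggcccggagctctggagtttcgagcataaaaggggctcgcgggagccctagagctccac
Cxcl2, chr5:90903649-90903898, plus strand: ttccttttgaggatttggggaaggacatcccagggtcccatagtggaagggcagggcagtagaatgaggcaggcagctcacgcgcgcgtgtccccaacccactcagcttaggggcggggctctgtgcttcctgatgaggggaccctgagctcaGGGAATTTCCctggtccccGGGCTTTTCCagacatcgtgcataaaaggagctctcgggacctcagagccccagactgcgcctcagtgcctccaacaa
Cxcl9, chr5:92328080-92328329, minus strand: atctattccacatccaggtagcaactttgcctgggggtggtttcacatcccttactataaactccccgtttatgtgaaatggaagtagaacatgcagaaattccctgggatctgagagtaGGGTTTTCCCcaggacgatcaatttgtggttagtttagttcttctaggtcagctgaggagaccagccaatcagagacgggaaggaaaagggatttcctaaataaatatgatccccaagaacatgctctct
Cxcl10, chr5:92348890-92349139, minus strand: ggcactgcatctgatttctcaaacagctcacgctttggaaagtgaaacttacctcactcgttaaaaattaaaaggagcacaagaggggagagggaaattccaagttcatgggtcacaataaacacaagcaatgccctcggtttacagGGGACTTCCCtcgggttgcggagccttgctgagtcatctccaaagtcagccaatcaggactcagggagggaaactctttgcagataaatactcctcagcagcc
Cxcl1 and Cxcl2 each held 2 matches within 100 bases of the start. Cxcl9 held 1, at 130 to 121 bases before it, and Cxcl10 held 1, at 103 to 94 bases. Of 38 symbols, 27 matched a RefSeq promoter window, and 8 of them (Ccl9, Ccl19, Ccl20, Cxcl1, Cxcl2, Cxcl3, Cxcl9 and Cxcl10) held the motif, against 4.11% of 32851 promoter windows. The interferon response type motif (GAAA, any 2 bases and GAAA), searched on both strands, was in 3 members (Ccl19, Cxcl10 and Cxcl14) and in 2.98% of windows. The 27 symbols had 33 windows, and a symbol was counted if any of its windows matched. Counts of members and shares of windows are therefore not in the same unit. A match is a description of letters, not of a bound site. No window was matched for Ccl2, Ccl4, Ccl5, Ccl7, Ccl11, Ccl21c, Ccl24, Ccl26, Cxcl5, Cxcl16 or Cxcl17.

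The class with the most UMIs differed between ligands, and some neighbouring genes shared it. Over the 29 members with at least 20 UMIs, and leaving out barcodes given no class, adipose stromal cells (ASC) held the most UMIs of 13, T cells of 5, macrophages of 5, natural killer (NK) cells of 3, and dendritic cells, endothelial cells and cells with markers of both ASC and mesothelium of 1 each. On chromosome 11, from 82035571 to 82116799 of GRCm38, Ccl2, Ccl7, Ccl11 and Ccl8 lie side by side, and ASC held 86.1%, 92.0%, 98.7% and 94.3% of their UMIs. Ccl12, which lies among these 4 genes, had 21 UMIs, all in macrophages. Further along, between 83525778 and 83664683, Ccl5, Ccl9, Ccl6, Ccl3 and Ccl4 were led by leukocytes of 3 classes. T cells held 46.8% of Ccl5, macrophages 54.9% of Ccl9 and 53.9% of Ccl6, and NK cells 30.5% of Ccl3 and 37.1% of Ccl4. On chromosome 5, from 90759360 to 90905938, the class with the most UMIs differed between adjacent genes: ASC held 87.7% of Cxcl1, and macrophages 56.1% of Cxcl2. Ccl25 and Cxcl10 were divided, with 41.2% and 33.7% in T cells and 32.8% and 27.4% in ASC. Ccl1 had 36 of its 58 UMIs in 2 untyped barcodes. The T cell lead in Ccl1 and Cxcl3 rested on 21 and 42 UMIs, each in 2 cells. Neutrophils held 27 UMIs of Cxcl3 in 6 of 40 cells. Such totals depend on how many cells of each class a library held, so the levels below are given as CPM, the UMIs of a gene scaled to the total UMIs of the class.

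**Figure D1:**
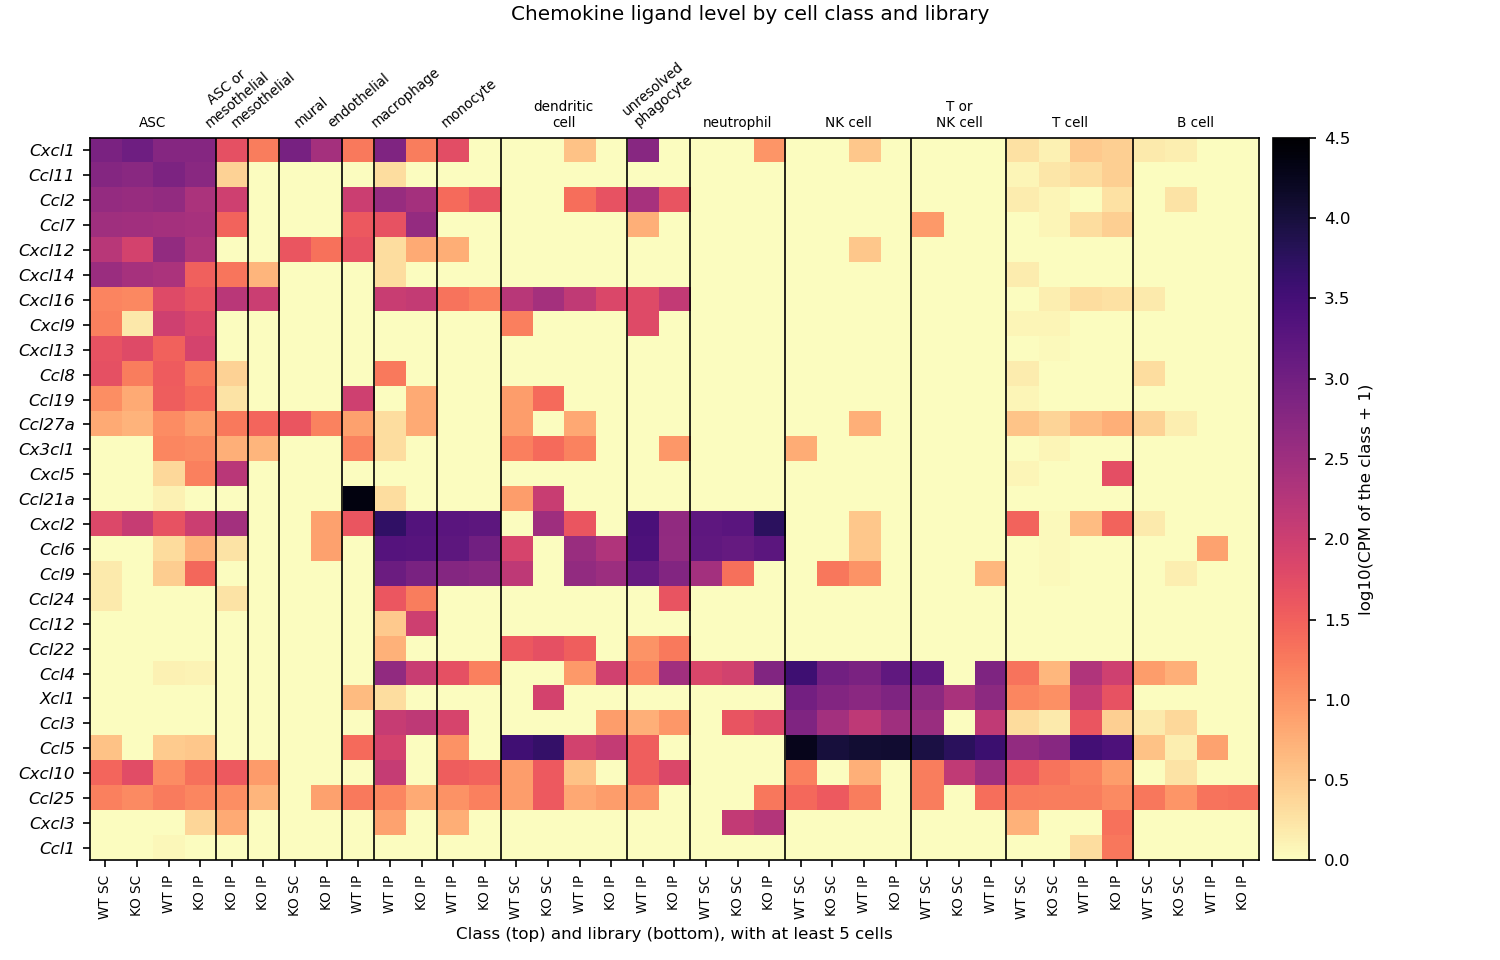
Level of each chemokine ligand (rows) in each cell class and library with at least 5 cells (columns), as log10 of CPM of the class plus 1; darker is higher. Ccl2, Ccl7, Ccl8, Ccl11, Cxcl12 and Cxcl14 fill the ASC columns. Ccl6 and Cxcl2 fill the macrophage, monocyte and neutrophil columns, and Ccl9 those of macrophages and monocytes. Ccl5, Ccl4 and Xcl1 fill the NK and T cell columns, and Ccl21a the endothelial column of WT IP.

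ASC, the fibroblast-like cells that include adipocyte progenitors, were 103, 123, 284 and 214 cells in WT SC, KO SC, WT IP and KO IP, and their 7 markers summed to between 27720 and 35560 CPM. All ligands together came to 2858, 2909, 3037 and 2293 CPM in that order, and between 91.1% and 98.1% of ASC held at least 1 chemokine UMI. B cells, which should lack nearly all of these transcripts, held 33.3, 18.3, 32.7 and 20.7 CPM.

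Ligands for eosinophils and monocytes were present in ASC of all 4 libraries. Ccl11 (eotaxin) was at 607, 537, 744 and 548 CPM in ASC of WT SC, KO SC, WT IP and KO IP. It was spread over most cells: after thinning each cell to 2000 UMIs it was found in 59.3%, 52.6%, 60.2% and 48.7% of ASC (86.4%, 80.5%, 81.3% and 73.8% without thinning), and in none of the B cells. KO was the lower library in each depot, by less than 2-fold. Its log2 ratio of KO to WT was -0.18 in SC (95% counting interval -0.30 to -0.05) and -0.44 in IP (-0.51 to -0.37).

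Ccl2, the main ligand of Ccr2 on monocytes, was at 415, 381, 419 and 233 CPM in the same order. KO IP alone was low, with a log2 ratio to WT IP of -0.85 (-0.95 to -0.74), short of 2-fold. Ccl7, which binds Ccr2 as well, was at 303, 300, 269 and 248 CPM, with intervals of KO to WT that lay within 2-fold in both depots. Both were concentrated in few cells. Of the Ccl2 UMIs, 4, 6, 7 and 6 ASC held 50%, against 17, 18, 44 and 31 ASC for Ccl11. Ccl8, a further monocyte attractant, was at 49.2, 15.7, 35.6 and 18.02 CPM, lower in KO than in WT in both depots. Its KO to WT ratio was -1.63 in SC (-2.34 to -1.01; 26 against 91 UMIs, 32 of the latter in 1 cell) and -0.98 in IP (-1.37 to -0.61).

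**Figure D2:**
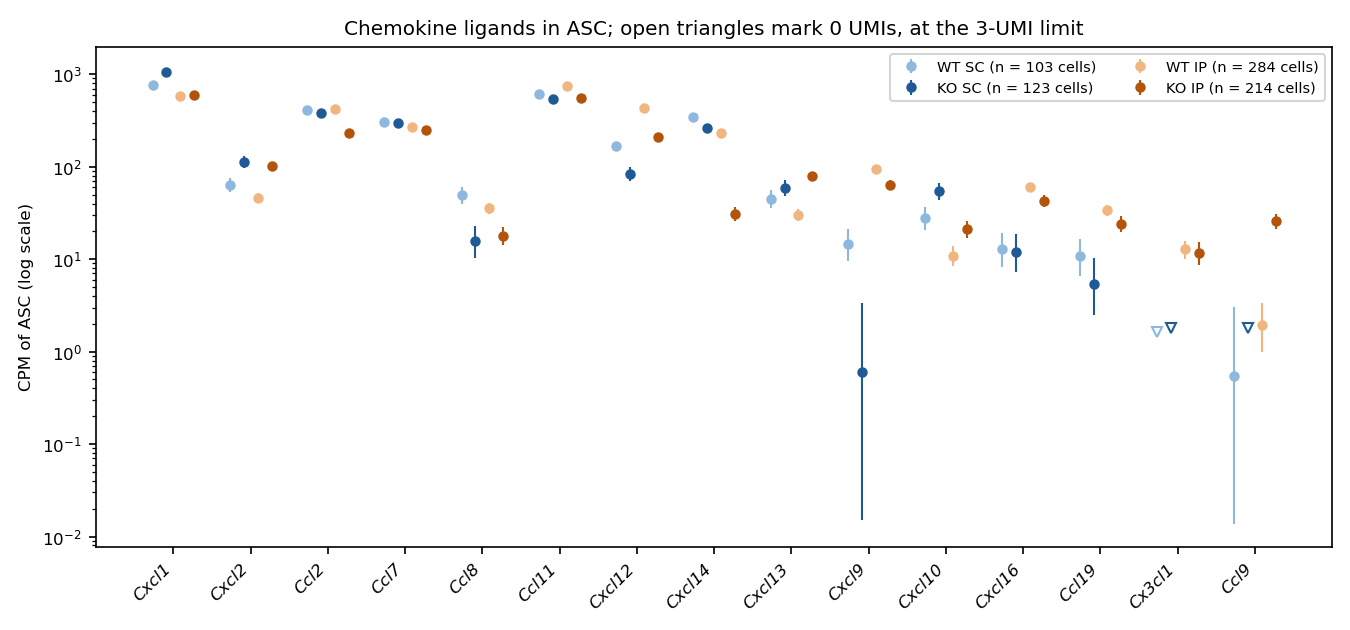
CPM in ASC (log axis) of 15 chemokine ligands in the 4 libraries; points are class totals, bars are exact 95% Poisson intervals and cover counting error only, and open triangles mark 0 UMIs at the limit that 3 UMIs would give. Ccl11, Ccl2, Ccl7 and Cxcl1 lie close together over the 4 libraries, Cxcl14 drops in KO IP to 31.1 CPM, and Cx3cl1 is at 0 in both SC libraries.

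Among neutrophil attractants, Cxcl1 had most of its UMIs in ASC. Its level in ASC was 772, 1069, 587 and 593 CPM in WT SC, KO SC, WT IP and KO IP, higher in both SC libraries than in both IP libraries. In WT IP its CPM was higher in macrophages, given below, than in ASC. In IP the KO to WT log2 ratio was 0.01 (-0.06 to 0.09) and in SC it was 0.47 (0.37 to 0.57). Cxcl2 was at 63.8, 113, 45.8 and 101 CPM, higher in KO than in WT in both depots. Of the 188 Cxcl2 UMIs of KO SC, 104 were in 1 cell, and without the highest cell of each library the ratio in SC was 0.02. In IP the ratio was 1.15 (0.93 to 1.37; 450 against 283 UMIs) and 1.2 without the highest cells. It was 0.44, short of 2-fold, with each cell weighted equally, and 2.04 with doublets kept. Cxcl5 had 0, 0, 8 and 65 UMIs, the last in 5 cells.

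Cxcl12, which retains Cxcr4-bearing cells in stroma, was at 167, 83.1, 429 and 210 CPM in ASC. Both IP libraries stood above the SC library of the same genotype, and both KO libraries below the WT library of the same depot. The KO to WT log2 ratio was -1.0 in SC (-1.30 to -0.71; 138 against 308 UMIs) and -1.03 in IP (-1.14 to -0.92; 931 against 2650 UMIs). With the shared barcodes kept in KO SC, the SC value was -0.91. The IP to SC ratio was 1.36 in WT (1.19 to 1.54) and 1.33 in KO (1.08 to 1.60). The same order held in cells with a Cxcl12 UMI, which after thinning were 23.1%, 10.5%, 45.6% and 26.4% of ASC (54.4%, 34.2%, 82.4% and 70.1% without thinning).

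Cxcl14, a ligand of epithelium and fibroblasts, was at 349, 264, 232 and 31.1 CPM. KO IP stood far below the other 3 libraries, with a KO to WT log2 ratio of -2.89 (-3.16 to -2.65; 138 against 1434 UMIs). Without the highest cell of each library the ratio was -3.08, and over 11 other ways of processing it lay between -3.08 and -2.26. In SC the ratio was -0.40 (-0.58 to -0.22).

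ASC with a UMI of Pi16 or Dpp4, genes of early stromal progenitors, were set beside those with neither. This split was chosen after the data were seen. Cxcl14 was lower in the cells with Pi16 or Dpp4 in WT SC (215 against 795 CPM), in KO SC (84.8 against 854) and in WT IP (153 against 392). In KO IP both fractions were low, at 30.8 and 32.5 CPM. Cxcl12 followed the same direction in all 4 libraries, from 33.8 against 245 CPM in KO SC to 205 against 234 in KO IP. Ccl11 was also lower in cells with Pi16 or Dpp4 in each library, at 495 against 978 CPM in WT SC and 705 against 822 in WT IP.

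Cx3cl1 and Cxcl16, the ligands made as membrane-anchored proteins, were higher in ASC of IP than of SC. Cx3cl1 had 0 UMIs in both SC libraries, 79 in 52 cells of WT IP and 52 in 30 cells of KO IP. Against the level that 3 UMIs would give in SC, it was at least 7.87-fold higher in IP of WT and at least 6.48-fold higher in IP of KO. With the shared barcodes kept in KO SC, whose copies have their larger partner in WT IP, the KO log2 ratio was 3.01. Cxcl16 was at 12.98, 12.04, 59.7 and 42.3 CPM, and its IP to SC ratio was 2.17 in WT (1.60 to 2.86) and 1.78 in KO (1.15 to 2.56), 1.51 with the shared barcodes kept.

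Ccl19, a ligand of Ccr7, was at 10.8, 5.42, 33.6 and 24.1 CPM, with IP to SC ratios of 1.60 in WT (0.97 to 2.38) and 2.08 in KO (1.17 to 3.32), 1.73 with the shared barcodes kept. Its annotated transcripts share 61.5% of their 25-base words with the gene model Gm2564, so part of its reads may have been lost or divided. Cxcl13, which attracts B cells through Cxcr5, was at 44.9, 59.0, 29.9 and 79.5 CPM. ASC held 99.9% of its UMIs, but in only 44 cells. A single cell held 129 of the 185 UMIs of WT IP, and another 146 of the 353 UMIs of KO IP, where the KO to WT ratio was 1.41 (1.15 to 1.67). It was 2.35 without these cells and 0.75, short of 2-fold, with each cell weighted equally.

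The interferon-type ligands were rarer and patchy. Cxcl9 was at 14.6, 0.602, 94.3 and 64.2 CPM. The SC difference rested on 1 UMI in KO against 27 UMIs in 9 cells of WT, a log2 ratio of -4.04 (-9.96 to -2.0), and it was -2.50 with the shared barcodes kept. In IP the 583 UMIs of WT were in 24 cells, 355 of them in 1. The 285 UMIs of KO were in 4 cells, 282 of them in 1. Thus the IP ratio was -0.55 (-0.76 to -0.35) as counted and -5.55 without the highest cell of each library. Cxcl10 was at 27.6, 54.2, 10.8 and 21.2 CPM, higher in SC than in IP: its IP to SC ratio was -1.35 in WT (-1.90 to -0.79) and -1.36 in KO (-1.79 to -0.92). It was the one ligand past 2-fold lower in IP in both genotypes.

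**Figure D3:**
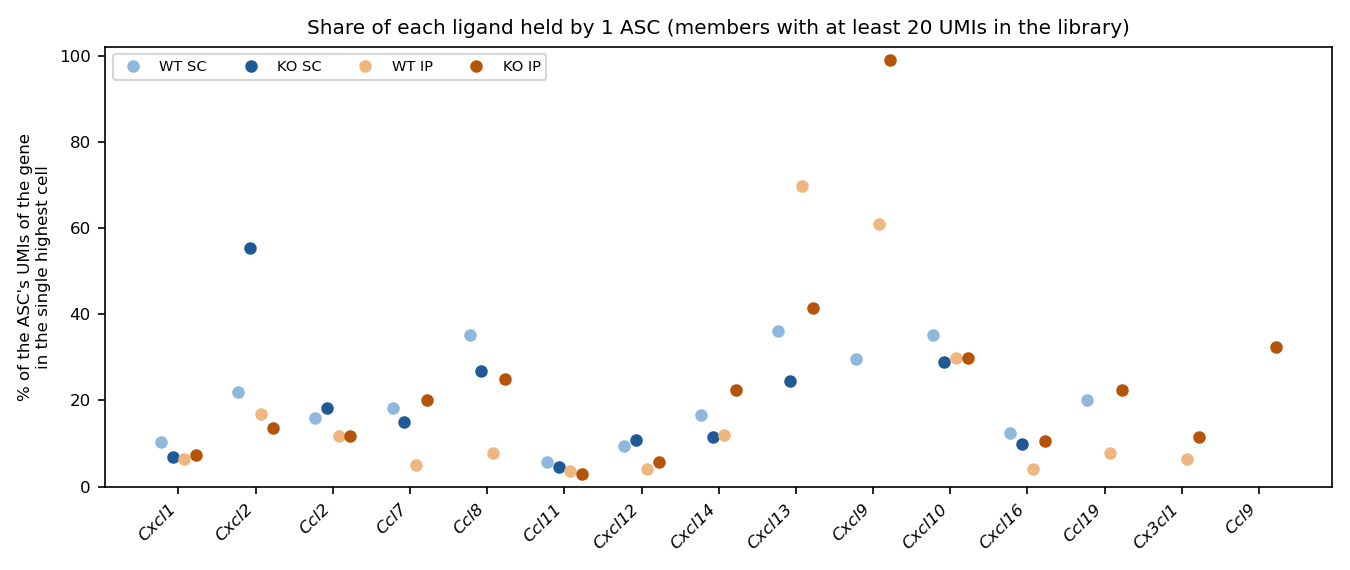
Percentage of the ASC's UMIs of each ligand that sat in the single highest ASC of a library, for members with at least 20 UMIs in that library. Cxcl9 reaches 60.9% in WT IP and 98.9% in KO IP. Ccl11 stays at or under 5.70% in all 4.

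Further ligands counted in ASC of IP were ones that macrophages led. Ccl9, a ligand of Ccr1, had 1, 0, 12 and 114 UMIs in ASC, the last in 15 cells with a median of 7 ASC markers, of which 1 cell had at least 2 macrophage markers. The KO to WT ratio in IP was 3.67 (2.87 to 4.72). The whole macrophage list was at 19.7 CPM in ASC of WT IP and 18.9 in KO IP, each with 6 of 7 markers at 1 UMI or more, and 5 and 4 cells with at least 2 of them. Ccl6 had 7 UMIs in WT IP and 18 in KO IP, 16 of them in 1 cell. That cell had 6 ASC markers and 4 macrophage markers.

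Counted over the ligands, KO against WT in ASC of SC compared the 14 members whose UMIs in the paired libraries summed to 20 or more. None was past 2-fold higher and 3 were past 2-fold lower (Cxcl9, Cxcl12 and Ccl8), with a median log2 ratio of -0.15 over these members and 0.00 over all genes, where 5.73% of 9825 genes were past 2-fold. In ASC of IP 20 members were compared. Past 2-fold higher in KO were 5 (Cxcl5, Cxcl2, Cxcl13, Ccl9 and Ccl6) and lower 2 (Cxcl12 and Cxcl14), with a median of -0.22 against 0.06 over all genes and 6.0% of 12384 genes past 2-fold. Cxcl5 was at 3.42 (2.44 to 4.77) and Ccl6 at 1.78 (0.51 to 3.34), 0.48 without the highest cells. Cxcl12 was the one ligand past 2-fold in both depots.

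IP against SC in ASC of WT compared 16 members, of which 5 were past 2-fold higher in IP (Ccl19, Cxcl9, Cxcl12, Cx3cl1 and Cxcl16) and Cxcl10 was lower, where 15.9% of 11770 genes were past 2-fold. The median was 0.09 over the members and 0.07 over all genes. In ASC of KO 18 members were compared, with 7 higher (those 5, Cxcl5 and Ccl9) and 2 lower (Cxcl10 and Cxcl14), against 17.0% of 11375 genes. The median was 0.30 over the members and 0.10 over all genes. Cxcl9 was 2.67 (2.13 to 3.30) in WT and 6.15 (4.25 to 12.04) in KO, the latter being 1.39 without the highest cell of each library and 4.61 with the shared barcodes kept. Cxcl5 was at least 8.1-fold and Ccl9 at least 14.2-fold higher in IP of KO. Cxcl14 was -3.08 (-3.37 to -2.81) in KO and -0.59 (-0.72 to -0.45) in WT. The KO and WT comparisons share libraries with the depot comparisons and are not independent of them.

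**Figure D4:**
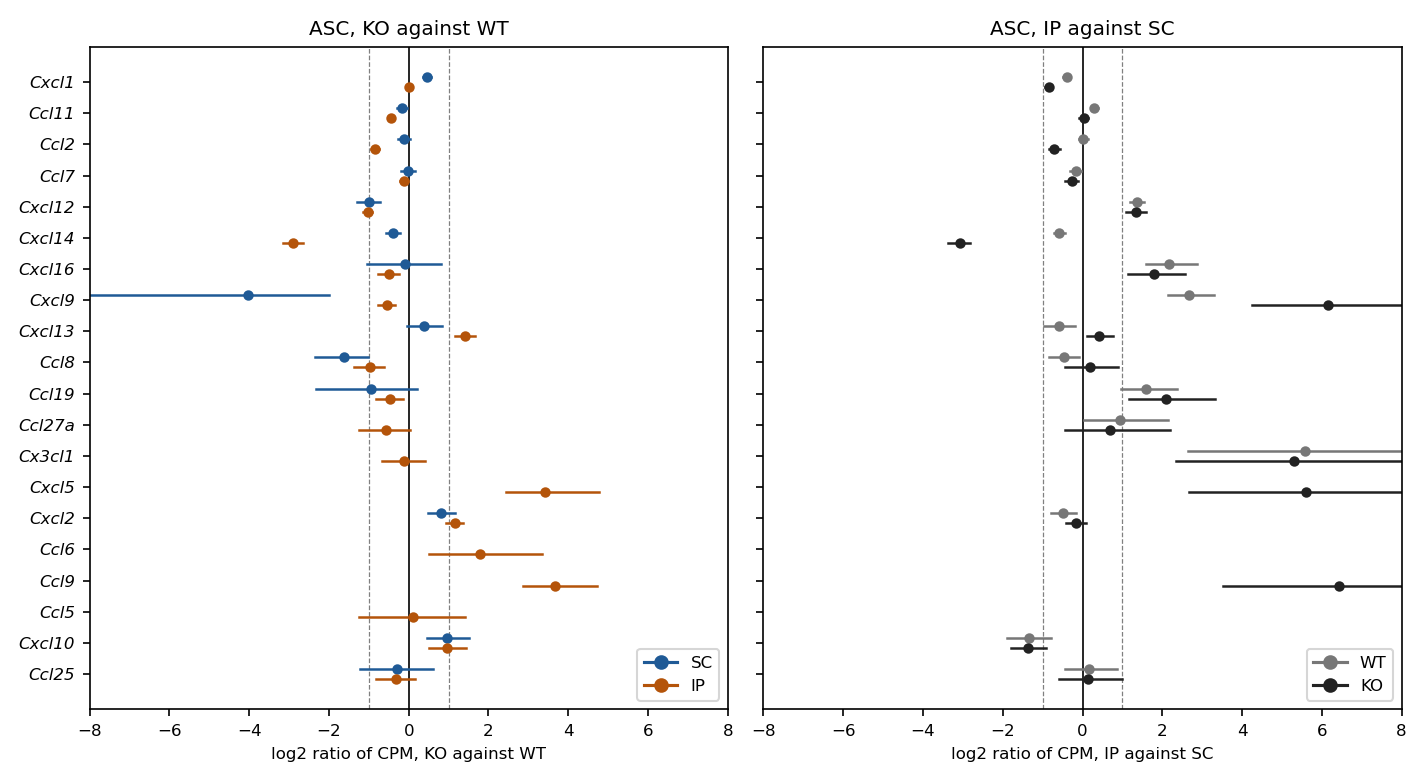
Log2 ratios of CPM in ASC, KO to WT on the left (SC and IP) and IP to SC on the right (WT and KO), for members whose UMIs in the paired libraries sum to 20 or more; bars are 95% counting intervals, drawn only within -8 to 8. Cxcl12 lies near -1 in both depots on the left and above 1 in both genotypes on the right.

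Red cell transcripts moved with these libraries. The haemoglobin-type marker list, with 5 of 5 genes at 1 UMI or more in both SC libraries, came to 8189, 35.5, 331 and 64.9 CPM in ASC (WT SC, KO SC, WT IP, KO IP). Mesothelial markers came to 144 CPM in ASC of WT IP and 259 in KO IP, with 4 and 11 cells holding at least 2. Their part in the ratios was not tested.

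Phagocytes held Cxcl2, Ccl6 and Ccl9. They also held parts of Ccl3, Ccl4, Cxcl1, Ccl2, Cxcl16 and Cxcl10, which other classes led over the 4 libraries together. Of the UMIs in WT IP, macrophages held 11.3% of Ccl2, 17.3% of Cxcl16 and 29.6% of Cxcl10. In KO IP they held 4.24%, 5.05% and 0%. Dendritic cells held 42.3% of the Cxcl16 UMIs of each SC library. Macrophages were 1 cell in each SC library, 55 in WT IP and 13 in KO IP. Their Cxcl2 was at 4947 CPM in WT IP and 2181 in KO IP. Ccl6, a ligand of Ccr1 that rodents have, was at 2079 and 1940 CPM, and Ccl9 at 1178 and 811 CPM. The 2 libraries thus lay close for Ccl6 and apart for Cxcl2. Cxcl1 was at 679 CPM in WT IP and 15.7 in KO IP. Ccl4, an attractant of monocytes and T cells, was at 445 and 110 CPM. Monocytes of IP showed Ccl6 at 1662 CPM in WT and 996 in KO, and Cxcl2 at 1838 and 1689 CPM. Ccl24, an eosinophil attractant, had 41 of its 48 UMIs in macrophages, and Ccl12 all 21.

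Neutrophils, 5, 10, 3 and 22 cells in WT SC, KO SC, WT IP and KO IP, held Cxcl2 at 1603, 1817, 1766 and 5724 CPM. KO IP was the highest, over 18 cells with a UMI. Ccl6 was at 1567, 1368, 1505 and 1780 CPM, within 2-fold over the 4 libraries. Dendritic cells held Ccl5 at 3439 and 4601 CPM in SC and 87.0 and 127 CPM in IP. Of the 458 Ccl5 UMIs of WT SC dendritic cells, 415 were in 1 cell. Ccl22, made by mature dendritic cells to draw Ccr4-bearing T cells, had 21 of its 41 UMIs in 7 dendritic cells.

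Too few macrophages of KO IP were typed for a comparison of that class alone. Macrophages, monocytes, dendritic cells and phagocytes that fit more than 1 of these lists were therefore joined, 104 cells in WT IP and 36 in KO IP, a comparison chosen after the data were seen. It compared 15 members, 2 past 2-fold higher in KO and 5 lower, against 12.0% of 7799 genes, with a median of -0.76 over the members and 0.02 over all genes. Cxcl1 had 771 UMIs in 34 cells of WT IP and 3 UMIs in 1 cell of KO IP, a log2 ratio of -6.03 (-8.53 to -4.70). Cxcl2 had 5594 and 585 UMIs, a ratio of -1.50 (-1.63 to -1.38). Cxcl10 was -1.83 (-2.99 to -0.96). Ccl22 was -1.13 (-4.57 to 0.65), with an interval that includes 0. Ccl5 was -1.02 (-1.88 to -0.31), with all 17 UMIs of KO IP in 1 cell and 61 of the 119 of WT IP in another. It was -5.12 without these cells, 0.25 with cells weighted equally, and -0.98 with a pseudocount of 1.

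Both ligands on the high side also rested on few cells. Ccl7 was 2.59 (2.04 to 3.17), with 70 of the 77 UMIs of KO IP in 1 cell, and -0.27 without the highest cell of each library. Ccl12 had 19 UMIs in 2 cells of KO IP and 2 UMIs in WT IP, a ratio of 4.72 (2.95 to 8.15). Ccl6 was -0.76 (-0.90 to -0.63) and Ccl9 -0.66 (-0.84 to -0.48), lower in KO within 2-fold. The mix of phagocytes differed between the libraries: macrophages were 55 of 104 cells in WT IP and 13 of 36 in KO IP, and dendritic cells 24 and 10. Red cell transcripts came to 8380 CPM of these cells in WT IP and 223 in KO IP. The part of either in the ratios was not tested.

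Over the 4 libraries together, T cells held the most UMIs of Ccl5, and NK cells of Ccl4, Ccl3 and Xcl1. The lead differed by library. In WT IP macrophages held more than NK cells of Ccl3 (29.6% against 16.9%) and Ccl4 (26.2% against 21.3%). In KO IP they held more of Ccl3 (36.5% against 28.4%) and less of Ccl4 (5.12% against 25.9%). NK cells, 21, 7, 45 and 11 cells in WT SC, KO SC, WT IP and KO IP, held Ccl5 at 18360, 9851, 11540 and 12250 CPM. Ccl5 attracts T cells and monocytes, and 20, 7, 45 and 11 of the NK cells had a UMI of it. Xcl1, which draws Xcr1-bearing dendritic cells, was at 938, 629, 520 and 719 CPM. Ccl4 was at 3662, 989, 771 and 1524 CPM and Ccl3 at 692, 288, 142 and 302 CPM, highest in WT SC. The Ccl4 values lean on single cells, which held 334 of 730 UMIs in WT SC, 52 of 55 in KO SC and 83 of 106 in KO IP.

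T cells, 451, 1159, 113 and 122 cells, differed by depot. Their Ccl5 was at 430, 561, 3260 and 2481 CPM in the order WT SC, KO SC, WT IP, KO IP, so that both IP libraries were above both SC libraries. After thinning to 2000 UMIs a Ccl5 UMI was found in 8.37%, 8.24%, 47.8% and 34.7% of T cells, against 1.003%, 0.223%, 0% and 0% of B cells. The IP to SC log2 ratio was 2.92 in WT (2.84 to 3.01) and 2.15 in KO (2.08 to 2.21). Cells with a UMI of Cd8a or Cd8b1 and none of Cd4 held it at 594, 625, 4026 and 6978 CPM. Cells with Cd4 and neither Cd8 gene held 24.5, 16.6, 1472 and 745 CPM, so the depot order was present in both fractions. Cells with none of the Cd8 genes, Cd4, Trdc or Tcrg-C1 kept this order, at 772, 909, 5169 and 2320 CPM. Cells with Trdc or Tcrg-C1 and no Cd8 gene or Cd4 held 524, 1261, 2204 and 384 CPM. In that fraction IP was above SC in WT but below SC in KO, where 2 of the 43 IP cells had a UMI. NK markers summed to 47.9, 35.7, 181 and 132 CPM in T cells, with 5, 7, 7 and 6 of 7 markers at 1 UMI or more. Their part in the depot difference was not tested.

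Xcl1 was at 12.4, 10.1, 117 and 45.1 CPM in T cells, with IP to SC ratios of 3.23 in WT (2.76 to 3.73) and 2.16 in KO (1.63 to 2.66). Ccl4 was at 19.2, 3.76, 204 and 93.9 CPM, with ratios of 3.40 (3.03 to 3.79) and 4.63 (4.08 to 5.23). These sizes depended on the processing. Over 11 other ways in WT, Xcl1 lay between 1.05 and 3.44 and Ccl4 between 1.01 and 3.41. Over 12 other ways in KO, Xcl1 lay between 1.48 and 3.09 and Ccl4 between 2.47 and 5.23. Cxcl10 went the other way, at 37.3, 19.0, 13.8 and 7.22 CPM, and 79 of the 169 UMIs of WT SC were in 1 cell of 95897 UMIs.

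Counted over the ligands, IP against SC in T cells, also chosen after the data were seen, compared 8 members in WT with 4 past 2-fold higher (Xcl1, Ccl3, Ccl4 and Ccl5) and 3 lower (Cxcl2, Cxcl3 and Cxcl10), against 12.3% of 9735 genes. Ccl3 was 5.11 (3.88 to 6.93), and between 1.04 and 5.11 over 10 other ways of processing. The median was 1.47 over the members and 0.02 over all genes. In KO 9 members were compared, 7 higher (Xcl1, Ccl1, Ccl4, Ccl5, Cxcl2, Cxcl3 and Cxcl5) and Cxcl10 lower, against 22.3% of 10810 genes, with medians of 4.63 and 0.32. Of the 7, Cxcl5 (56 UMIs), Cxcl3 (22 UMIs) and Ccl1 (20 UMIs) were each in 1 cell of KO IP.

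KO against WT in T cells of SC compared 8 members, none past 2-fold higher and 3 lower (Cxcl2, Cxcl3 and Ccl4), against 6.54% of 11262 genes, with medians of -0.92 over the members and -0.14 over all genes. Cxcl3 was at least 14.1-fold lower and Cxcl2 was -7.52 (-13.42 to -5.60), and both rested on 1 WT SC barcode typed as a T cell that held 20 and 114 UMIs of them. Ccl4 was -2.34 (-2.96 to -1.78; 36 against 87 UMIs). Ccl5, the ligand with the most UMIs in T cells, was 0.38 (0.31 to 0.46), within 2-fold.

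In T cells of IP 10 members were compared, 4 past 2-fold higher in KO (Cxcl5, Cxcl3, Cxcl2 and Ccl1) and 3 lower (Xcl1, Ccl3 and Ccl4), against 9.99% of 7869 genes, with medians of -0.41 and 0.14. Cxcl5 and Cxcl3 were at least 15.9-fold and at least 6.24-fold higher, all in 1 cell. Cxcl2 was 2.98 (1.51 to 5.53; 32 UMIs in 6 cells against 3), and Ccl1 was 3.54 (1.45 to 9.46; 20 UMIs in 1 cell against 1). Of the lower ones, Xcl1 was -1.36 (-1.88 to -0.87; 50 against 110 UMIs), but -0.93 with cells weighted equally and -0.53 with typing by clusters. Ccl4 was -1.11 (-1.48 to -0.77; 104 against 192 UMIs), and Ccl3 was -4.21 (-7.61 to -2.57; 2 against 39 UMIs). Ccl5 was -0.39 (-0.47 to -0.32). By fraction, cells with a Cd8 gene and no Cd4 were higher in KO, at 6978 CPM (26 cells) against 4026 (37 cells). Cells with Cd4 and no Cd8 gene were lower in KO, at 745 against 1472 CPM. So were cells with Trdc or Tcrg-C1 alone (384 against 2204) and with none of these genes (2320 against 5169). The part of the cell mix in the ratio was not tested. Red cell markers came to 6021 CPM in T cells of WT IP and 119 in KO IP, and their part was not tested.

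**Figure D5:**
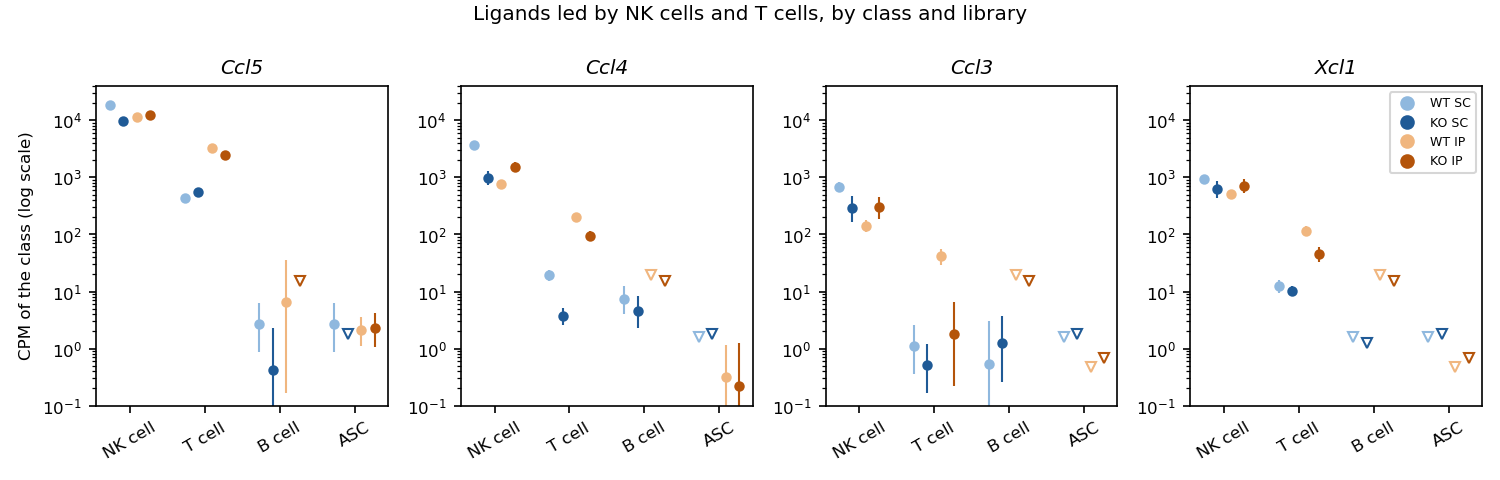
CPM (log axis) of Ccl5, Ccl4, Ccl3 and Xcl1 in NK cells, T cells, B cells and ASC of each library; points are class totals, bars are exact 95% Poisson intervals, and open triangles mark 0 UMIs at the limit that 3 UMIs would give. Of these classes NK cells are highest for all 4 ligands in each library, and T cells of both IP libraries (2481 and 3260 CPM of Ccl5) lie above T cells of both SC libraries (430 and 561 CPM).

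Endothelial cells were nearly absent, with 2 and 1 cells in SC of WT and KO and 17 and 4 in IP, although they are the cells the Cre line targets. Those of IP were the source of Ccl21a, the Ccr7 ligand of lymphatic vessels and lymphoid tissue, with 6773 UMIs in 13 of 17 cells of WT IP and 2405 UMIs in 4 of 4 cells of KO IP. These came to 23090 and 30310 CPM, and endothelial cells held 95.9% of all Ccl21a UMIs. No comparison was made on so few cells. Blood and lymphatic endothelium were not separated. This class held the lymphatic genes Mmrn1, Prox1 and Flt4 at 2478, 808 and 535 CPM, and Kdr, Emcn and Flt1 at 387, 215 and 179 CPM. Ccl21a shares 83.6% of its 25-base words with the gene model Gm21541, and Ccl21b, with 7 UMIs, shares all of them, so the division of reads among these copies is uncertain. Of the 9 listed markers of lymph node stroma and high endothelial venules, Madcam1 had 2, 0, 2 and 1 UMIs per library. Glycam1 had 0, 3, 0 and 0, Chst4 0, 0, 7 and 38, and Fut7 3, 4, 11 and 6. Grem1 had 0, 11, 20 and 0, and Bst1 7, 12, 74 and 69. Tnfsf11 had 212, 196, 90 and 112, Fcer2a 597, 572, 30 and 26, and Clu 195, 75, 303 and 3279. Cx3cl1 had 11 UMIs in the 2 endothelial cells of WT SC, where ASC had 0.

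B cells held few chemokine UMIs. These were mostly Ccl25, a gut and thymus ligand that was found at 8.75 to 17.7 CPM in B cells, T cells and ASC of SC alike. KO against WT in B cells of SC compared 2 members, none past 2-fold higher and 1 lower, against 4.26% of 8868 genes: Ccl25 was -1.0 (-1.88 to -0.18; 21 against 33 UMIs), and Ccl4 was -0.70 (-2.0 to 0.53). The members' median was -0.85 and that of all genes -0.08. Ccl27a had 216 UMIs, 53.7% of them in ASC. Of the members under 20 UMIs, Ccl17 had 13, Cxcl17 had 9, Ccl20 had 7, all in T cells, Ccl21b had 7 and Ccl28 had 5.

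Single barcodes that held many ligands at once set several of the values above. An ASC of KO IP with 53611 UMIs was the highest cell of its class for 10 members, and chemokines were 2.01% of its UMIs, among them 282 of Cxcl9, 222 of Ccl7, 192 of Cxcl1 and 121 of Ccl2. It had all 7 ASC markers. The single macrophage of KO SC, with 30847 UMIs, held 460 Cxcl2, 119 Ccl9 and 83 Cxcl1 UMIs. A macrophage of KO IP with 26804 UMIs was the highest for 5 members, with 124 Ccl6 and 70 Ccl7 UMIs. A barcode of KO IP with markers of both ASC and mesothelium, at 74608 UMIs, held 197 of the 211 Cxcl5 UMIs of that class.

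Among the receptors, ASC held Ackr3, an atypical one that takes up Cxcl12 without G protein signalling. It was at 905, 1062, 238 and 357 CPM, the reverse of the order of Cxcl12 over the 4 libraries. Its IP to SC log2 ratio was -1.93 in WT and -1.57 in KO. Cxcr2, the receptor of Cxcl1, Cxcl2 and Cxcl5, was in neutrophils at 713 to 1374 CPM. Ccr2 was in macrophages of IP at 732 CPM in WT and 868 in KO, and Cxcr5, the receptor of Cxcl13, in B cells at 144 to 202 CPM. Of 25 listed receptors and platelet-type ligands, KO against WT compared 6 in ASC of SC, with 0 past 2-fold higher and 2 lower (5.73% of all genes), and 7 in ASC of IP, with 1 and 0 (6.0%). That 1 was Ccr2, with all 17 UMIs of KO IP in 1 cell. It compared 17 in T cells of SC, with 1 and 1 (6.54%), 8 in T cells of IP, with 2 and 1 (9.99%), 5 in B cells of SC, with none (4.26%), and 8 in phagocytes of IP, with 0 and 1 (12.0%). The last was the macrophage and platelet ligand Pf4, with 418 UMIs in WT IP and 21 in KO IP, a log2 ratio of -2.53. In T cells of IP the 268 Ccr2 UMIs of KO stood against 66 of WT, a ratio of 1.78, and the 42 Ccr7 UMIs of KO against 160, a ratio of -2.15.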

How the data were processed

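The authors prepared 10x Genomics 3' libraries from AT and deposited, for each of 4 libraries, a matrix of UMI counts per gene and barcode. Per the file headers these counts came from Cell Ranger 7.0.0; the submitters' processing notes name STAR 2.6 and mm10. Whether intronic reads were counted is not given in the sources used here. The counts were used unnormalized.

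Kept barcodes had 200 genes or more and a mitochondrial share of UMIs up to 25%. Scrublet (expected rate 5%) called 17 doublets, 0.411% of the barcodes it saw, so doublets were in effect not removed. The 93 barcodes of KO SC shared with WT IP were left out. Of 4927 barcodes 4026 remained. A barcode was typed where at least 3 markers of a class had a UMI and led the next class 1.5-fold. UMIs of a class were summed per library and given as CPM with exact Poisson intervals. Ratios are log2 of CPM after adding 0.5 UMI, with exact conditional binomial 95% intervals. Ratios were made where a class had at least 30 cells in each library and a gene at least 20 UMIs in both together, and members past 2-fold were named. A gene at 0 was bounded by a floor of 3 UMIs. Depth differed between classes and libraries (the kept cells' median was 6910 to 13054 UMIs), so shares of cells were also given after thinning cells to 2000 UMIs. Ratios were checked on simulated counts with known folds. These were drawn as Poisson counts from class totals, with no spread between cells. They could not check the intervals of ligands held by few cells.

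The members, gene lists and comparisons were chosen with earlier results of these data known. Phagocytes of IP, IP against SC in T cells, and the split of ASC by Pi16 or Dpp4 were added after seeing the data. Coordinates are from GENCODE on GRCm38 and promoter sequences from RefSeq on GRCm38.p6. Software was scanpy 1.11.5, pandas 2.3.3, scipy 1.17.1, numpy 2.4.6 and Python 3.11.15, with scikit-learn 1.9.0, igraph 0.11.9 and matplotlib 3.10.9. Alternatives were other cell filters, typing, scaling, pseudocount, UMI minimum and cell weighting, doublets or shared barcodes kept, and the highest cell left out.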

Additional observations from a re-analysis of the deposited data

Results flagged for a closer look

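Several ligands moved in opposite directions in the same contrast, and none of these differences was tested, since each library stands alone. In T cells the KO to WT log2 ratio of Cxcl3 was -6.44 in SC and 5.26 in IP, both fitted against 0 UMIs and so not sizes. That of Cxcl2 was -7.52 in SC and 2.98 in IP. The ratio of Ccl5 was 0.38 in SC and -0.39 in IP, with UMIs in 52 to 116 T cells of SC and 46 to 59 of IP. By depot, the IP to SC ratio in T cells was -3.09 in WT and 8.60 in KO for Cxcl3, again fitted against 0 UMIs, where the bounds are at least 1.39-fold lower and at least 63.4-fold higher in IP. It was -2.96 in WT and 7.55 in KO for Cxcl2. In ASC the IP to SC ratio of Cxcl13 was -0.59 in WT and 0.42 in KO, and 129 of the 185 UMIs of WT IP sat in 1 cell.

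Some ligands also had a large part of their UMIs in barcodes that could be given no class. In WT SC these held 22 of Ccl1, which is 100% of its kept UMIs, 15 of Ccl27a (36.6%) and 6 of Cx3cl1 (30%). In KO SC they held 73 of Ccl3 (66.4%), 115 of Ccl4 (52.0%) and 35 of Ccl6 (28.7%), and 1 barcode of 4328 UMIs held 64, 111 and 35 of these. In WT IP they held 7 of Ccl22 (28.0%), 105 of Ccl3 (28.5%), 426 of Ccl4 (26.9%) and 386 of Xcl1 (45%). Of the latter, 237 Ccl4 UMIs were in 1 red cell barcode of 30113 UMIs and 296 Xcl1 UMIs in 1 untyped barcode.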

How the results depend on the processing

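Over single members, 1205 values under alternatives stayed within their criterion, 94 moved and 8 reversed; of the counts past 2-fold, 100 stayed within 1.5 times and 22 did not. With all genes of 1 UMI compared, the members past 2-fold were 6 for KO against WT in ASC of SC, 12 in ASC of IP, 17 in T cells of SC, 9 in B cells of SC and 12 in phagocytes of IP, and 11 for IP against SC in ASC of WT, 12 in T cells of WT and 18 in T cells of KO. With a minimum of 50 UMIs they were 3 for KO against WT in T cells of IP and 5 for IP against SC in T cells of KO. Without the highest cell they were 1 for KO against WT in T cells of SC, 3 in T cells of IP, and 4 for IP against SC in T cells of both genotypes. Typing by clusters gave 7 (SC) and 4 (IP) for KO against WT in T cells. Weighting cells equally gave 6 in ASC of SC. In B cells of SC the count was 0 with at most 10% mitochondrial UMIs, 1 more marker, clusters, another scaling or a pseudocount of 1.

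Reversed values came mostly from typing by clusters: KO against WT in T cells of IP gave Cxcl2 -0.96 and Ccl4 0.52, and IP against SC in T cells gave Cxcl2 0.59 and Cxcl10 0.19 in WT and Cxcl10 0.14 in KO. Weighting cells equally gave Cxcl10 0.05 for the same contrast in WT and Ccl5 0.25 for KO against WT in phagocytes of IP, where Ccl7 was -0.27 without its highest cell. The cause was not tested. Macrophages of KO IP (13 cells) were too few for the planned comparison; the cluster named for them, which over the 4 libraries also took in 53 dendritic cells and 25 monocytes, held 127 cells in WT and 49 in KO, with 15 members compared, 2 past 2-fold higher and 6 lower. The phagocyte comparison could not be made with 1 more marker (72 and 23 cells). No paired analysis was possible because each group is 1 library.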

Other observations

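In ASC with a Ccl9 UMI the median total was 36920 UMIs in WT IP (8 cells) and 37490 in KO IP (15 cells), against 22200 and 19240 in ASC without one. Mural cells were 4, 7, 2 and 6 in number. Cxcl1 was 54.1%, 91.0% and 83.3% of their chemokine UMIs in WT SC, KO SC and KO IP. In WT IP they were led by Ccl19, at 53.6% of 28 chemokine UMIs. Mast cells, 2 in WT SC and 3 in WT IP, held 169 and 55 chemokine UMIs, led by Ccl4 in the former and by Ccl2 in the latter. Cells typed as mesothelium, 9 in KO IP, were led by Cxcl16, which made up 62.8% of their 43 chemokine UMIs.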
